A study of Drosophila melanogaster with 8 samples.

Results

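Male and female heads of the *CSB* (*Canton S-B*) control line of *Drosophila melanogaster* were compared across all genes, as the 2 male against the 2 female libraries that carry this genotype in their labels, 4 of the 8 libraries of the study. All 8 libraries entered the fit, so that the other 4 also set the filter, the scaling and the estimate of spread. Of 17490 genes in the count table, 13536 had enough counts to be tested. The study asked how a deletion of the odorant-binding protein gene *Obp56h* changes gene expression in heads of either sex, and *CSB* is the line in which the deletion was made. Each library was made from the heads of 50 flies that were 3 to 5 days old, and the labels give no treatment. *CSB* is a single line, and the mating status of the flies is not given in the sources used here. The sex difference of the *Obp56h* null line, in which the gene was replaced by a cassette with a *DsRed* marker under an eye-specific promoter, was read beside that of *CSB*.

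In flies, the sex of a cell is set by its X chromosomes through a cascade of splicing factors that ends in sex-specific forms of the transcription factors Doublesex and Fruitless. Males carry a single X and raise its transcription with a complex that is guided by the noncoding RNAs *roX1* and *roX2*. The head holds brain, eyes and antennae, and also fat body, a tissue with the roles of liver and adipose tissue that makes yolk proteins in females and is a known site of sex-specific gene expression in the adult head.

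The *CSB* libraries held between 10127941 counted reads (female replicate 1) and 25067373 (female replicate 2), so that 3 reads, taken as the floor of detection, were worth 0.124 to 0.276 CPM (counts relative to library size, scaled by TMM factors). On principal components of all 8 libraries, *CSB* female replicate 1 and *CSB* male replicate 1 lay at −61.2 and −40.8 on the first axis (45.8% of the variance), and the other 6 libraries between 4.77 and 25.2. The second axis (22.7%) separated all male from all female libraries. Markers of head tissue were high in every *CSB* library: *ninaE*, the major rhodopsin, was between 19880 and 22650 CPM, and the neuronal marker *elav* between 454.5 and 527.1 CPM. Summed markers of testis (19 genes, 7.61 to 22.4 CPM), accessory gland (23 genes, 14.9 to 19.5 CPM) and ovary (21 genes, 25.4 to 50.2 CPM) were low in both sexes, and 0 of the tested members of these lists were called, with the germline genes *bam* (−3.62), *vas* (−1.68) and *osk* (0.11) below 3 CPM in every *CSB* library. The testis sums of both *CSB* libraries numbered 1 (22.4 and 19.3 CPM) were above those of both numbered 2 (7.61 and 10.1 CPM). The same order held for the sums of ovary markers (50.2 and 32.7 against 28.8 and 25.4 CPM) and of odorant, gustatory and ionotropic receptors. It did not hold for pheromone-sensing genes (60.5 and 56.6 against 62.2 and 54.8 CPM). Both libraries numbered 1 also had more genes with a count (16146 and 15602, against 15268 and 15306). The part of this in the results was not tested. Whether same-numbered libraries shared a day of preparation is not given in the sources used here.

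In all, 393 of the 13536 genes (2.90%) differed between the sexes at an adjusted p under 0.05 (quasi-likelihood test of edgeR, adjusted by the Benjamini-Hochberg method over all genes tested), and such genes are named as called in what follows. Of these, 133 (0.983%) were higher in males and 260 (1.92%) were higher in females. Without adjustment, 1398 genes (10.3%) were at p under 0.05. The median size of a called difference was 0.92 on the log2 scale for genes higher in males and 0.97 for genes higher in females. At least 2-fold differences were seen in 59 and 126 of them, and at least 16-fold differences in 12 and 7. In all 393 genes both males lay on one side of both females, which was the case for 4144 of all genes tested (30.6%). The number called depended on the libraries: it was 148 without *CSB* female replicate 1, 275 without *CSB* female replicate 2, 622 without *CSB* male replicate 1 and 957 without *CSB* male replicate 2, of which 139, 227, 344 and 370 were among the 393. The number higher in males was 47, 50 and 298 without *CSB* female replicate 1, female replicate 2 and male replicate 2, and the number higher in females was 101, 444 and 659 without *CSB* female replicate 1, male replicate 1 and male replicate 2. A fit of the 4 *CSB* libraries alone called 203 genes, 79 higher in males and 124 in females. With libraries scaled by their size alone, 321 genes were called, 54.5% of them higher in females, against 66.2% with TMM factors. The p-values rest on the spread between pools of flies of the same group, estimated over all 8 libraries of both lines. The sex difference itself is that of a single line.

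The yolk protein genes were the most abundant of the genes higher in females. *Yp1*, *Yp2* and *Yp3* encode the vitellogenins that fat body secretes for the oocyte. They lie on the X chromosome (BDGP6 assembly), *Yp1* at 10053811 to 10055498 and *Yp2* beside it at 10050951 to 10052636, on the other strand, and *Yp3* at 13759546 to 13761547. *Yp1* shares exon sequence with *asRNA:CR45601* on the other strand. *Yp1* was at 10950 and 10160 CPM in the female libraries and at 397 and 4.72 CPM in the male libraries. *Yp2* was at 16810 and 17330 CPM in females and at 453 and 8.75 CPM in males. *Yp3* was at 20530 and 21200 CPM in females and at 596 and 40.5 CPM in males. The females agreed closely and no male came near them, but the 2 males differed greatly from each other: replicate 1 held 3.76% (*Yp1*), 2.65% (*Yp2*) and 2.86% (*Yp3*) of the female mean, and replicate 2 held 0.0447%, 0.0513% and 0.194%. The log2 fold changes, male minus female, were −5.72 ± 1.04 for *Yp1*, −6.21 ± 0.99 for *Yp2* and −6.04 ± 0.74 for *Yp3* (± SE), with edgeR adjusted p = 0.0043, 0.0014 and 1.0e-04. The call of *Yp1* was lost without *CSB* female replicate 1 (edgeR adjusted p = 0.0511).

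Of other genes with large differences toward females, *fit* was equal in the male libraries and *Obp99a* was not. *fit*, a secreted fat body protein known to be female-biased in heads, was at 169 and 143 CPM in females and at 8.90 CPM in each male library, 5.70% of the female mean in both (log2 fold change −4.13 ± 0.25, edgeR adjusted p = 7.8e-09). *fit* overlaps exons of *CG31465* on the other strand and of *asRNA:CR45046*, and whether the counting used strand is not given in the sources used here. *Obp99a*, an odorant-binding protein gene, was at 68.6 and 51.7 CPM in females and at 1.04 and 0.292 CPM in males, the largest fold among the genes higher in females (91.5-fold, log2 fold change −6.52 ± 0.39, edgeR adjusted p = 7.8e-09). Its male replicate 1 held 1.74% of the female mean and replicate 2 held 0.485%.

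**Figure D1:**
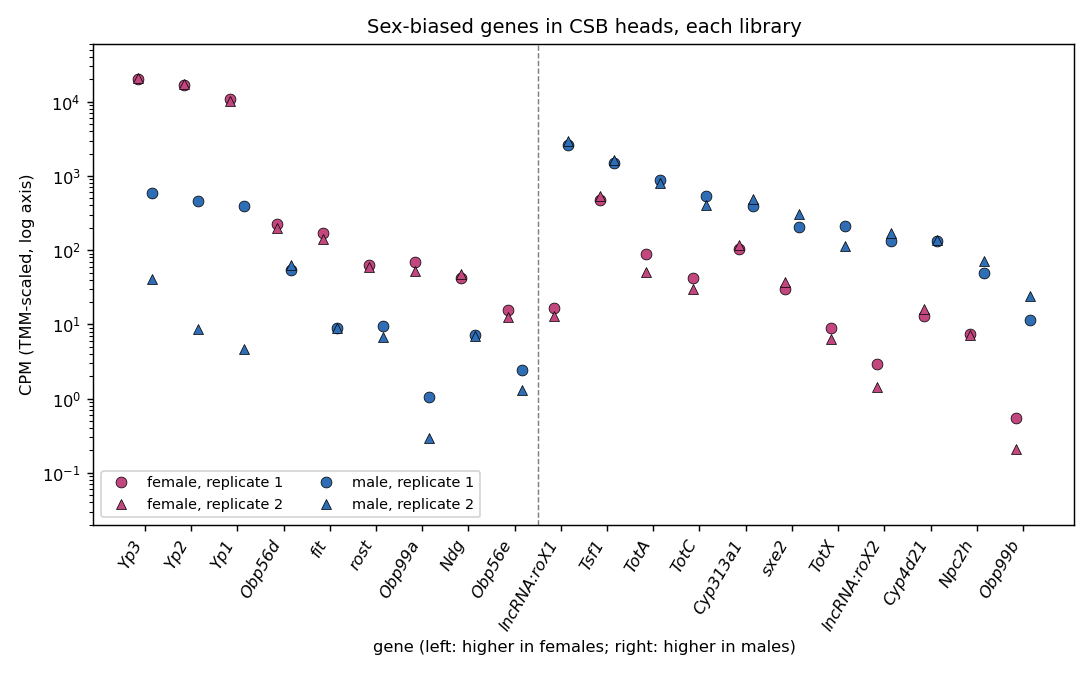
CPM (TMM-scaled, log axis) of 20 genes in each *CSB* library, with females in pink, males in blue, circles for replicate 1 and triangles for replicate 2. The genes shown were picked from the 393 called. The sexes do not overlap in any called gene, so their separation here comes with that choice (30.6% of all genes tested do not overlap). The male circles of *Yp1*, *Yp2* and *Yp3* (397, 453 and 596 CPM) lie far above the male triangles (4.72, 8.75 and 40.5 CPM).

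Genes known for sex-specific expression in head fat body moved in both directions. *Obp99b*, also known as *tsx* (turn on sex-specificity), was at 0.553 and 0.207 CPM in females and at 11.3 and 24.2 CPM in males (log2 fold change 5.77 ± 0.44, edgeR adjusted p = 1.4e-07). *Cyp4d21* (*sxe1*), a cytochrome P450 gene, was at 13.2 and 16.1 CPM in females and at 134 and 139 CPM in males (3.21 ± 0.17, edgeR adjusted p = 1.2e-09). *sxe2*, which encodes a predicted lipase, was at 29.7 and 36.8 CPM in females and at 206 and 307 CPM in males (2.94 ± 0.19, edgeR adjusted p = 1.6e-08). In all 3 genes both males lay far above both females. *takeout* (*to*), a secreted carrier protein tied to feeding and male courtship, went the other way, with 29.7 and 36.8 CPM in females and 16.6 and 14.9 CPM in males (−1.08 ± 0.17, edgeR adjusted p = 0.0012). *to* and *sxe2* happened to have the same counts in both female libraries (322 and 890) and different counts in every other library. In bulk heads, fewer cells of a type and less RNA per cell cannot be told apart.

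Genes of general fat body metabolism differed much less. Of 19 tested, 3 were higher in males (15.8%, against 0.983% of all genes) and 1 in females (5.26%, against 1.92%). The median of the list was −0.05 on the log2 scale, against 0.00 over all genes. *Tsf1*, the iron-binding transferrin, was at 472 and 531 CPM in females and at 1505 and 1645 CPM in males (1.65 ± 0.14, edgeR adjusted p = 7.5e-07). The lipid-droplet perilipin *Lsd-1* (0.68) and *GNBP-like3* (0.80) were higher in males, and *Apoltp*, which makes a lipid transfer particle (−0.77), was higher in females. *apolpp*, the main lipoprotein, was at 11650 and 13350 CPM in females and at 9613 and 9878 CPM in males and was not called. The call of *Lsd-1* was lost without *CSB* female replicate 1 or 2 (edgeR adjusted p = 0.0508 and 0.0528), and that of *GNBP-like3* without *CSB* female replicate 2 (0.427).

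Among secreted proteins that were named after their values were seen, 2 of 5 larval storage hexamerins and 2 of 5 Npc2 lipid-binding proteins were higher in males. Each is 40.0% of those tested, against 0.983% of all genes. The choice of these lists on their values fixes part of these counts. *Npc2h* was at 7.37 and 7.27 CPM in females and at 49.1 and 71.2 CPM in males (log2 fold change 3.04 ± 0.22, edgeR adjusted p = 1.0e-07). *Lsp1beta* was at 66.7 and 68.6 CPM in females and at 355 and 304 CPM in males (2.28 ± 0.43, edgeR adjusted p = 0.0056). Its groups lay far apart, yet its call was lost without *CSB* female replicate 1 or 2 (edgeR adjusted p = 0.139 and 0.0861), and in the *Obp56h* null line its log2 fold change was 0.05. The null females differed widely in the summed hexamerins, at 1063 CPM in replicate 1 and 273.1 CPM in replicate 2. The null males were at 601.9 and 707.8 CPM. *Lsp1alpha* (3.09) and *Npc2g* (0.86) were also higher in *CSB* males, at lower levels in the case of *Lsp1alpha* (0.829 and 0.0827 CPM in females, 2.75 and 3.40 CPM in males). The calls of *Lsp1alpha* and *Npc2g* were lost without *CSB* female replicate 2 (edgeR adjusted p = 0.0924 and 0.112), and that of *Npc2g* also without *CSB* female replicate 1 (0.0837). *Lsp2* (36.8 and 49.97 CPM in females, 74.3 and 27.7 CPM in males) and *Lsp1gamma* (−0.31) were not called. *Lsp2* was called in opposite directions without *CSB* male replicate 1 (lower in males, edgeR adjusted p = 0.0193) and without *CSB* male replicate 2 (higher in males, 0.0032).

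Turandot genes, which encode small secreted proteins induced by stress through JAK-STAT signaling, were much higher in males. *TotA* was at 90.1 and 50.6 CPM in females and at 882 and 814 CPM in males (log2 fold change 3.60 ± 0.24, edgeR adjusted p = 2.8e-08). *TotC*, its neighbor on chromosome arm 3R, was at 42.1 and 29.6 CPM in females and at 545 and 404 CPM in males (3.74 ± 0.24, edgeR adjusted p = 1.8e-08). *TotX* was at 8.93 and 6.41 CPM in females and at 213 and 116 CPM in males (4.46 ± 0.29, edgeR adjusted p = 1.9e-08). For these 3 genes both males lay far above both females. *TotM*, on arm 2L, was at 38.0 and 27.7 CPM in females and at 137 and 45.5 CPM in males (1.48 ± 0.37, edgeR adjusted p = 0.038), and its call was lost without *CSB* female replicate 1, female replicate 2 or male replicate 1 (0.222, 0.35 and 0.332). Of the 7 members tested, these 4 were called (57.1%, against 0.983% of all genes called higher in males). *TotE*, *TotF* and *TotZ* were each below 1 CPM in all 4 libraries. The family sums were 180.8 and 115.6 CPM in females and 1779 and 1380 CPM in males.

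Antimicrobial peptides, the secreted effectors of the humoral immune response, were mostly not called. Of 27 tested, 1 was higher in males (3.7%, against 0.983% of all genes). Both males lay above both females in 14 (51.9%), against 14.9% of all genes. *Drsl4*, a relative of drosomycin, was at 6.91 and 7.15 CPM in females and at 46.1 and 29.3 CPM in males (log2 fold change 2.42 ± 0.22, edgeR adjusted p = 1.4e-06). Metchnikowin (*Mtk*) was at 281 and 137 CPM in females and at 515 and 284 CPM in males, and drosocin (*Dro*) at 22.9 and 9.47 against 47.6 and 23.4 CPM. In both genes the highest female nearly reached the lowest male, and neither was called in the fit of all libraries. Both were called higher in males without *CSB* male replicate 2 (edgeR adjusted p = 1.4e-05 for *Mtk* and 4.1e-09 for *Dro*), without null male replicate 1 (0.0054 and 0.0015) and without null male replicate 2 (0.02 and 0.0108), and *Dro* also without null female replicate 2 (0.0258). In the *Obp56h* null line the log2 fold changes of *Mtk* and *Dro* were −1.72 and −1.31, also not called. Other members that define the list were drosomycin (*Drs*, −0.47), the defensin *Def* (−0.51), the bomanin *BomS1* (0.40), *CecA1* (−1.94), *DptA* (−0.02) and *AttA* (0.46), with *Drs* at 22.01 and 9.42 CPM in females and 10.2 and 12.0 CPM in males and the last 3 below 3 CPM in every *CSB* library. *AttA* was called higher in males without *CSB* female replicate 1 (edgeR adjusted p = 0.0469). *BomS6*, another bomanin, named after its value was seen, was higher in males at 594 and 633 against 359 and 339 CPM (0.81), a call that was lost without *CSB* female replicate 2 (edgeR adjusted p = 0.0646).

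Odorant-binding proteins are small secreted carriers of hydrophobic molecules, made in chemosensory organs and in other tissues. Of 51 genes in the table, 34 were tested. Of these, 4 (11.8%, against 0.983% of all genes) were higher in males (*Obp99b*, *Obp8a*, *Obp44a* and *Obp57a*). A further 5 (14.7%, against 1.92% of all genes) were higher in females (*Obp99a*, *Obp56e*, *Obp56d*, *Obp83ef* and *Obp83cd*). *Obp99a* and *Obp99b*, which lie close together on 3R (29671657 to 29672334 and 29716254 to 29716896), thus differed in opposite directions, 91.5-fold and 54.6-fold. *Obp56d* was at 225 and 197 CPM in females and at 53.3 and 63.8 CPM in males (log2 fold change −1.85 ± 0.16, edgeR adjusted p = 1.1e-06). *Obp56e*, its neighbor on 2R, was at 15.8 and 12.7 CPM in females and at 2.42 and 1.31 CPM in males (−2.94 ± 0.34, edgeR adjusted p = 4.9e-05), and it overlaps *asRNA:CR44509* on the other strand. *Obp83ef* (−1.84) and *Obp83cd* (−1.64) fell together in males, but their exons overlap on opposite strands, so reads from 1 of them may have been counted for the other. *Obp56h* itself was at 4.97 and 3.72 CPM in females and at 6.04 and 5.15 CPM in males, a difference that was not called (0.38 ± 0.39, edgeR adjusted p = 0.905). The 3 smaller male differences, in *Obp8a* (1.08), *Obp44a* (0.71) and *Obp57a* (0.56), were each lost without *CSB* female replicate 1 (edgeR adjusted p = 0.226, 0.0774 and 0.109) and without *CSB* female replicate 2 (0.101, 0.156 and 0.36). *Obp83cd* was lost without *CSB* female replicate 2 (edgeR adjusted p = 0.0542). The calls of *Obp8a* and *Obp57a* were also lost without *CSB* male replicate 1 (edgeR adjusted p = 0.0603 and 0.0913), that of *Obp44a* without *CSB* male replicate 2 (0.141), and that of *Obp57a* in 3 of the 4 fits without a null library. The receptor families gave no calls: 0 of 37 odorant receptors, 0 of 29 gustatory receptors and 0 of 49 ionotropic receptors tested, most of them at low counts (3, 2 and 12 with a mean of at least 50 counts).

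Cytochrome P450 genes, which oxidize hormones, lipids and toxins, were called in 8 of 82 tested, 7 of them higher in males (8.54%, against 0.983% of all genes) and 1 in females (1.22%, against 1.92%). *Cyp313a1* was at 102 and 116 CPM in females and at 392 and 484 CPM in males (log2 fold change 2.00 ± 0.15, edgeR adjusted p = 1.4e-07). *Cyp4d21*, given above, had the largest difference. *Cyp309a1* (1.78), *Cyp9h1* (1.06), *Cyp6g1* (0.90), *Cyp28d1* (0.75) and *Cyp305a1* (0.72) were the others. Each of these 5 calls was lost without *CSB* female replicate 1 (edgeR adjusted p = 0.0939, 0.167, 0.0837, 0.0939 and 0.452). *Cyp309a1*, *Cyp9h1* and *Cyp305a1* were also lost without *CSB* female replicate 2 (edgeR adjusted p = 0.0925, 0.123 and 0.0539), and *Cyp305a1* without *CSB* male replicate 2 (0.162). *Cyp18a1*, which inactivates ecdysone, was the member higher in females, at 59.9 and 71.8 CPM against 32.3 and 29.6 CPM in males (−1.09 ± 0.15, edgeR adjusted p = 3.9e-04). Among digestive enzymes, 1 of 13 amylases and maltases tested was called, higher in males (7.69%, against 0.983% of all genes). This gene, the amylase *Amy-d*, was at 7.09 and 7.44 CPM in females and at 22.03 and 24.02 CPM in males (1.66 ± 0.18, edgeR adjusted p = 1.9e-05). *Sodh1*, a sorbitol dehydrogenase named after its value was seen, was at 69.9 and 90.9 CPM in females and at 189 and 224 CPM in males (1.36 ± 0.21, edgeR adjusted p = 9.5e-04). Of 31 glutathione S-transferases tested *GstE9* (1.01) was higher in males, and of 31 UDP-glycosyltransferases *Ugt36F1* (0.83). Each is 3.23% of its family, against 0.983% of all genes. Of 83 cuticular proteins, *Cpr76Bc* (1.78) and *Cpr72Ec* (0.60) were higher in males (2.41%). *Edg91* (−2.63) was higher in females (1.2%, against 1.92% of all genes). With 1 or 2 calls in a direction, these shares do not describe the families. *Cpr76Bc* kept its call without any 1 library, whereas *GstE9*, *Ugt36F1* and *Cpr72Ec* lost theirs without *CSB* female replicate 1 (edgeR adjusted p = 0.0785, 0.17 and 0.226) and without *CSB* female replicate 2 (0.0527, 0.238 and 0.0774). *Edg91* lost its call without *CSB* female replicate 1 (edgeR adjusted p = 0.111), and *Cpr72Ec* also without *CSB* male replicate 1 (0.0691). Genes of cuticular hydrocarbon synthesis, the source of sex pheromones, gave 0 calls among 10 tested. *eloF*, the elongase known for female-specific hydrocarbons, did not pass the filter on low counts and was at most 1.29 CPM in any *CSB* library.

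The noncoding RNAs of dosage compensation were far apart between the sexes. *roX1* (listed as *lncRNA:roX1*, X, 3857230 to 3862697) was at 16.9 and 13.2 CPM in females and at 2627 and 3004 CPM in males (log2 fold change 7.57 ± 0.20, edgeR adjusted p = 3.0e-14). *roX2* (*lncRNA:roX2*, X, 11579065 to 11580432) was at 2.95 and 1.45 CPM in females and at 134 and 171 CPM in males (6.25 ± 0.28, edgeR adjusted p = 1.2e-10). *roX1* shares exon sequence with *ec* on the other strand. *msl-2*, the subunit whose translation is blocked in females, was at 23.8 and 35.6 CPM in females and at 55.4 and 46.3 CPM in males (0.76 ± 0.18, edgeR adjusted p = 0.026), a call that was lost without *CSB* female replicate 1 (0.33). The other protein subunits, *msl-1* (0.07), *msl-3* (0.40), *mof* (0.10) and *mle* (0.13), were not called.

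Of 13 sex determination genes, 0 were called, and both males lay below both females in 7 (53.8%, against 15.7% of all genes). *Sxl*, the switch gene of the cascade, was at 765 and 873 CPM in females and at 632 and 517 CPM in males (log2 fold change −0.51 ± 0.15, edgeR adjusted p = 0.087). *tra* (−0.53), *fru* (−0.39), *dsx* (0.30) and *tra2* (−0.13) had edgeR adjusted p = 0.24, 0.195, 0.531 and 0.934. Without *CSB* male replicate 1, *Sxl* and *tra* were called lower in males (edgeR adjusted p = 0.0027 and 0.0162). These genes act through sex-specific splice forms, which a count per gene does not separate.

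Genes of the eye and nervous system were described in 6 lists. Among 29 phototransduction genes, 16 eye pigment genes, 24 monoamine genes, 14 clock genes and 15 neuron markers tested, 0 were called in any list, against 2.90% of all genes, and the list medians lay between 0.07 and 0.15 on the log2 scale. The light-gated channel *trp* (0.06), the synaptic vesicle gene *nSyb* (0.07), the dopamine synthesis gene *ple* (0.02), the clock gene *per* (0.17) and the glial marker *repo* (0.08) lay close to 0. Both males lay above both females in 41.7% of the monoamine genes, 31.0% of the phototransduction genes and 6 of 10 glia markers, against 14.9% of all genes. Of the glia markers, the astrocyte marker *alrm* (0.69) and *wrapper*, which ensheathes axons (0.63), were higher in males. Both calls were lost without *CSB* female replicate 1 (edgeR adjusted p = 0.134 and 0.336), and that of *alrm* also without *CSB* female replicate 2 or male replicate 2 (0.172 and 0.108). In the fit without *Obp56h* null male replicate 1, *wrapper* was at edgeR adjusted p = 0.0575. Pheromone-sensing genes gave 0 calls among 10 tested, of which 3 had a mean of at least 50 counts.

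Of 43 neuropeptide and peptide hormone genes, 1 was higher in males (2.33%, against 0.983% of all genes) and 2 in females (4.65%, against 1.92%). *CCHa2*, a peptide made in fat body and gut that signals nutrient state to insulin-producing cells, was at 76.4 and 65.9 CPM in females and at 133 and 129 CPM in males (log2 fold change 0.88 ± 0.14, edgeR adjusted p = 0.0013). *Lst* (Limostatin), a hormone that lowers insulin secretion, was at 126 and 122 CPM in females and at 65.5 and 56.5 CPM in males (−1.02 ± 0.16, edgeR adjusted p = 0.0011). *CNMa* was lower in males (−0.99), a call that was lost without *CSB* female replicate 1 (edgeR adjusted p = 0.156). In the *Obp56h* null line, *CCHa2* (0.19) and *Lst* (−0.05) were not called. The interaction of sex and genotype was at an unadjusted edgeR p of 0.0024 and 3.6e-04 for these genes and did not pass after adjustment over all genes.

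**Figure D2:**
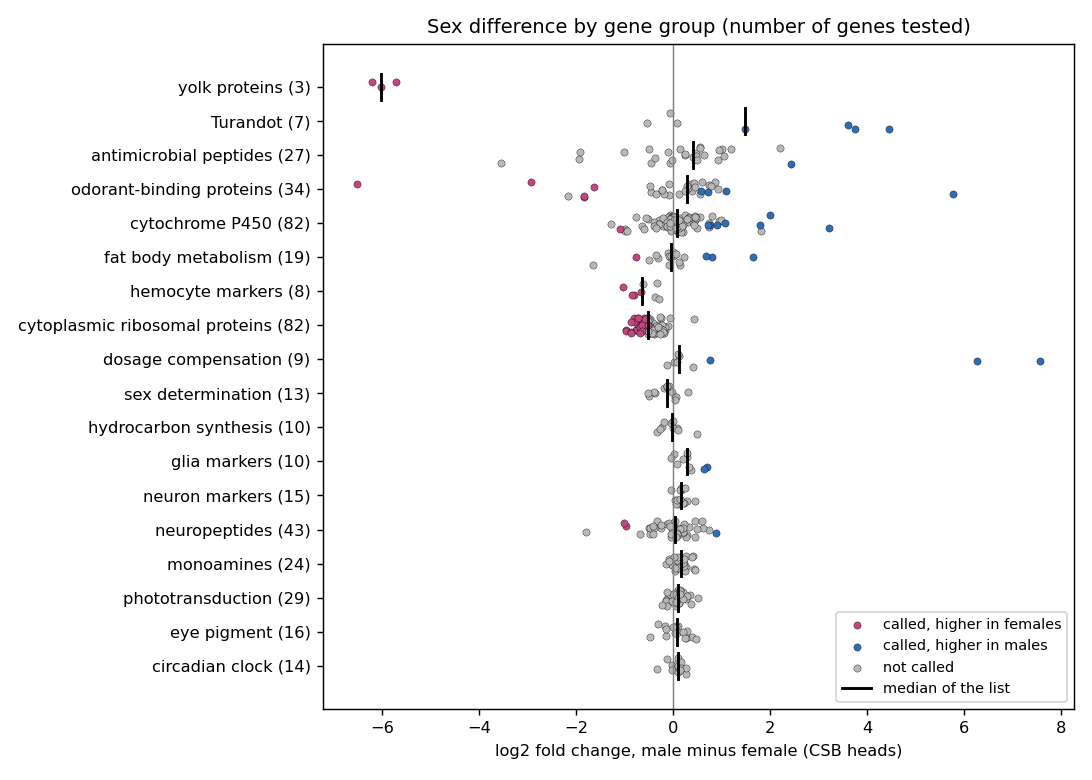
Log2 fold change, male minus female, of every tested member of 18 gene groups in *CSB* heads, with genes called higher in females in pink, in males in blue and the rest in grey, and the median of each group as a black bar. The yolk genes lie far below 0. The Turandot genes run from −0.54 to 4.46, with 4 of the 7 called higher in males. The ribosomal proteins lie below 0 as a body (median −0.51). The medians of the neuronal and eye groups lie close to 0, and the neuropeptides run from −1.81 to 0.88.

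Markers of hemocytes, the circulating and tissue-bound blood cells, were lower in males. Of 8 tested, 4 were called lower in males and both males lay below both females in 7 (87.5%), against 15.7% of all genes. The phagocytosis receptor *NimC1* was at 38.9 and 34.5 CPM in females and at 14.8 and 20.6 CPM in males (log2 fold change −1.05 ± 0.17, edgeR adjusted p = 0.0021). *eater*, another phagocytosis receptor (−0.85), the crystal cell prophenoloxidase *PPO2* (−0.82) and the matrix protein *Ppn* (−0.67) were also called. *Hml*, the hemolectin used most often to mark these cells, was at 303 and 359 CPM in females and at 198 and 326 CPM in males, and its groups overlapped. *Hml* was called lower in males without *CSB* male replicate 2 (edgeR adjusted p = 7.9e-04) and in the *Obp56h* null line (log2 fold change −0.88, edgeR adjusted p = 0.0098). The call of *eater* was lost without *CSB* female replicate 1 or 2 (edgeR adjusted p = 0.0652 and 0.069). *PPO2* was lost without *CSB* female replicate 1 (edgeR adjusted p = 0.279). *Ppn* was lost without *CSB* female replicate 2, *CSB* male replicate 1 and either *Obp56h* null male (0.116, 0.0562, 0.0501 and 0.0681). In the *Obp56h* null line 6 of the 8 markers were called lower in males, against 2.36% of all genes. The summed markers were 1324 and 1495 CPM in *CSB* females and 798 and 1105 CPM in *CSB* males. Of other genes tied to blood cells and named after their values were seen, the scavenger receptor *Sr-CI* was at 77.2 and 71.4 CPM in females and at 34.9 and 39.2 CPM in males (−1.002 ± 0.15, edgeR adjusted p = 7.4e-04).

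Basement membrane genes, a list chosen after values were seen, included 4 of 9 called lower in males, against 1.92% of all genes. The choice of the list on its values fixes part of this count. *Ppn*, 1 of the 4, is also counted among the hemocyte markers. *Ndg*, which encodes nidogen, was at 41.9 and 47.4 CPM in females and at 7.14 and 7.001 CPM in males (log2 fold change −2.66 ± 0.20, edgeR adjusted p = 1.4e-07). *Tig*, *Ppn* and the collagen IV gene *Col4a1* differed by −0.68, −0.67 and −0.55. The call of *Tig* was lost without *CSB* female replicate 2 (edgeR adjusted p = 0.105), and that of *Col4a1* in 7 of the 8 fits that left out a library (edgeR adjusted p up to 0.164). *rost* (rolling stone), known from myoblast fusion, was named after its value was seen. It was at 62.4 and 60.1 CPM in females and at 9.56 and 6.86 CPM in males (−2.90 ± 0.18, edgeR adjusted p = 1.3e-08). Both *Ndg* and *rost* kept their calls under every alternative that was run.

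Sarcomere genes, also a list chosen after values were seen, were called lower in males in 9 of 30 (against 1.92% of all genes), with both males below both females in 20 (against 15.7%). The choice of the list on its values fixes part of these counts. *Mlp84B*, a muscle LIM protein, was at 450 and 496 CPM in females and at 276 and 242 CPM in males (log2 fold change −0.87 ± 0.15, edgeR adjusted p = 0.0021). The giant muscle proteins *sls* (−0.66) and *bt* (−0.71) and the light chain *Mlc1* (−0.77) fell by similar amounts. These calls were lost without *CSB* female replicate 2 for *sls* and *bt* (edgeR adjusted p = 0.127 and 0.0789), without *CSB* female replicate 1 for *Mlc1* (0.0837), and for *sls* also without either *Obp56h* null male (0.0645 and 0.0885). The count of called sarcomere genes was 4 to 13 in the fits that left out a *CSB* library. It was 5 and 4 without *CSB* female replicate 1 and 2. Flight muscle markers gave 0 calls among 6, with the flight muscle actin *Act88F* at 8.29 and 7.23 CPM in females and 9.73 and 10.4 CPM in males.

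Genes of ribosome assembly and translation were lower in males as groups. Of 82 cytoplasmic ribosomal protein genes tested, 27 were called lower in males (32.9%, against 1.92% of all genes) and 0 higher. Of these 82 genes, 64 had both males below both females (against 15.7% of all genes), and the median log2 fold change was −0.51. Their sums were 48140 and 48880 CPM in females and 37120 and 32300 CPM in males. *RpL30* was at 193 and 187 CPM in females and at 86.0 and 108 CPM in males (−0.97 ± 0.16, edgeR adjusted p = 0.0017), and its call held under every alternative that was run. It overlaps *CG31793* on the other strand. The size of the differences was small, and the number called ranged from 8 without *CSB* female replicate 1 to 54 without *CSB* male replicate 1, with 21 and 41 without *CSB* female replicate 2 and *CSB* male replicate 2. In the *Obp56h* null line 36 of the 82 were called lower in males (median −0.58), against 2.36% of all genes. *RpL34b* and *RpS15Ab* are near copies of other members, so their separate values are uncertain.

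Proteins that act with small nucleolar RNAs (snoRNAs) to modify ribosomal RNA were also lower in males. In a list of 9 chosen after values were seen, 5 were called lower in males (55.6%, against 1.92% of all genes), a count that the choice partly fixes. *nop5* was at 38.9 and 34.0 CPM in females and at 10.8 and 14.1 CPM in males (log2 fold change −1.54 ± 0.18, edgeR adjusted p = 4.6e-05). *Fib*, the fibrillarin methyltransferase (−1.37), *Nop60B*, the pseudouridine synthase (−1.21), *Nop56* (−1.18) and *Gar1* (−1.001) were the others, and the call of *Gar1* was lost without *CSB* female replicate 1 (edgeR adjusted p = 0.0518). *Nop60B* shares exon sequence with 6 annotated snoRNAs on the same strand. *Myc*, a transcription factor known to raise ribosome production, was at 179 and 208 CPM in females and at 97.9 and 85.5 CPM in males (−1.08 ± 0.16, edgeR adjusted p = 7.4e-04). *Thor*, the 4E-BP that restrains cap-dependent translation, was also lower in males, at 329 and 321 CPM in females against 169 and 127 CPM (−1.14 ± 0.15, edgeR adjusted p = 2.8e-04). *Odc1*, ornithine decarboxylase of polyamine synthesis, was at 38.6 and 34.8 CPM in females and at 11.9 and 11.1 CPM in males (−1.67 ± 0.17, edgeR adjusted p = 6.5e-06). *Myc*, *Thor* and *Odc1* were named after their values were seen.

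The snoRNAs themselves gave 32 calls lower in males (21.2%, against 1.92% of all genes) and 0 higher among 151 tested. Their median log2 fold change was −1.03, and 96 (63.6%, against 15.7% of all genes) had both males below both females. All snoRNA genes together took 0.332% and 0.221% of all counts in *CSB* females and 0.101% and 0.168% in *CSB* males. In the *Obp56h* null line they took 0.326% and 0.275% in females and 0.136% in each male library. The count depended most on a single library: 3 snoRNAs were called without *CSB* female replicate 1, 34 without *CSB* female replicate 2, 38 without *CSB* male replicate 1 and 71 without *CSB* male replicate 2. In the fit without both *CSB* libraries numbered 1, an alternative chosen after the data were seen, 7 were called. Of 28 snRNAs, 5 were called lower in males (17.9%, against 1.92% of all genes), among them *snRNA:U5:14B* and *snRNA:U1:82Eb*, whose calls were lost without *CSB* female replicate 1 (edgeR adjusted p = 0.143 and 0.0658) and without *CSB* female replicate 2 (0.142 and 0.0943). Mitochondrial ribosomal RNAs, named after their values were seen, went the other way (*mt:lrRNA* 0.89, *mt:srRNA* 0.63). *mt:lrRNA* was at 5519 and 4251 CPM in females and 11190 and 6951 CPM in males. The call of *mt:lrRNA* was lost without *CSB* female replicate 1, female replicate 2 or male replicate 1 (edgeR adjusted p = 0.0865, 0.29 and 0.174). *mt:srRNA* was lost without *CSB* female replicate 2 or *Obp56h* null male replicate 1 (0.12 and 0.0519). Ribosomal RNA had been depleted during library preparation. All genes of the rRNA class took 0.831% and 0.6002% of the counts in females and 1.53% and 1.05% in males. Most of this was *mt:lrRNA* and *mt:srRNA* again. The whole class summed to 7753 and 6218 CPM in females and 14400 and 9966 CPM in males. Of its 8 genes tested, 3 were called higher in females (37.5%, against 1.92% of all genes). These were *5SrRNA:CR33451*, *pre-rRNA:CR45845* and *pre-rRNA:CR45846*. The part of leftover ribosomal RNA in these results was not tested.

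Genes on the X chromosome were lower in males more often than genes on the autosomes. Of 2085 X-linked genes tested, 14 were called higher in males (0.671%) and 65 in females (3.12%). Of 11244 autosomal genes, 107 were called higher in males (0.952%) and 188 in females (1.67%). Both males lay below both females in 24.2% of X-linked and 14.1% of autosomal genes, and above them in 10.9% and 15.5%. The median log2 fold change was −0.09 for X-linked and 0.02 for autosomal genes. Among genes averaging 50 or more counts, the X median minus the autosomal median was −0.10 to −0.08 on the log2 scale in the 4 pairs of a *CSB* male and a *CSB* female library, and −0.10 to −0.05 in the 4 pairs of the *Obp56h* null line. Genes of a chromosome are not replicates, and these values are a description. Protein-coding genes alone gave 12 and 44 calls among 1866 on the X (0.643% and 2.36%) and 102 and 158 among 9820 on the autosomes (1.04% and 1.61%). Of the 65 X-linked genes higher in females, 11 were snoRNAs, out of 26 tested on the X. The 65 became 20 without *CSB* female replicate 1, 110 without *CSB* male replicate 1 and 157 without *CSB* male replicate 2. The 14 X-linked genes higher in males became 7 and 4 without *CSB* female replicate 1 and 2, and 26 and 31 without *CSB* male replicate 1 and 2.

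**Figure D3:**
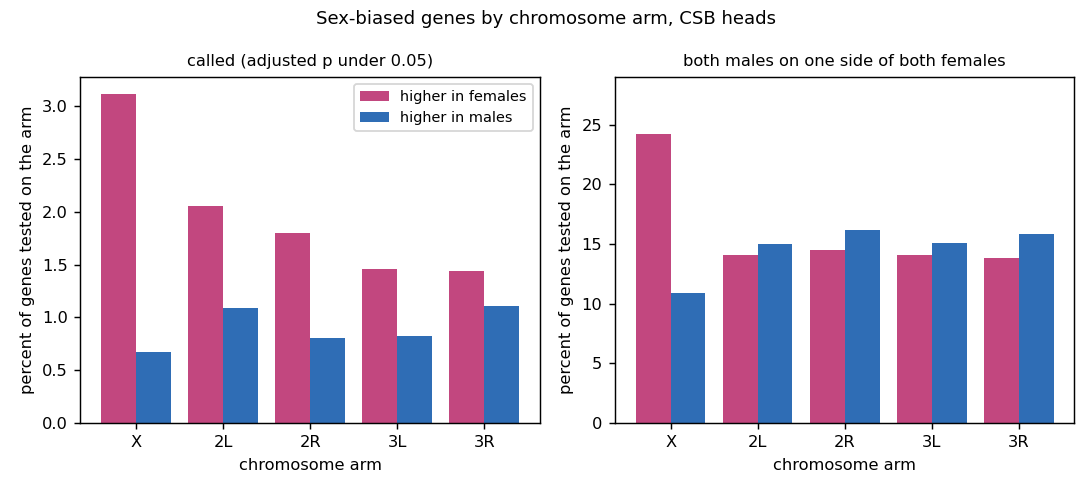
Percent of the genes tested on each chromosome arm that were higher in females (pink) or in males (blue) in *CSB* heads, by the edgeR call on the left and by non-overlap of the 2 male and 2 female libraries on the right. Of the 5 arms shown, the X has the highest share of genes higher in females (3.12% and 24.2%) and the lowest share of genes higher in males (0.671% and 10.9%), the first of these from 14 genes, a count that was 4 to 31 in fits without 1 *CSB* library.

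On the Y chromosome, 17 of 113 annotated genes were tested and 5 were called, all of them *Su(Ste)* repeats. These have 0 counts in both female libraries, so that they passed the filter on low counts through the males alone and their difference is part of that choice. Against the floor of 3 reads, their male means were at least 8.53-fold to 12.5-fold higher. The *Su(Ste)* genes are near-identical copies, among which reads with a single best position cannot be divided with certainty. All 5 calls were lost without *CSB* female replicate 1 (edgeR adjusted p = 0.0711 to 0.153) and without *CSB* female replicate 2 (0.103 to 0.21), and 2 of them without *CSB* male replicate 1 (0.156 and 0.0933). The male fertility genes *kl-2*, *kl-3* and *kl-5*, which encode dynein chains of sperm, were at most 3.57 CPM in any library and were not called. *kl-2* was at 3.57 CPM in male replicate 1 and at 0.583 CPM in male replicate 2, and all 3 of these genes were higher in replicate 1. *kl-2* was called higher in males without *CSB* male replicate 2 (edgeR adjusted p = 0.0138).

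Among the 15 largest differences in each direction, several genes outside these groups were at low levels. For *CG8117*, *lncRNA:CR45702* and *CG14452*, neither *CSB* female library rose above the floor of 3 reads. These genes passed the filter on low counts through other libraries, so part of their difference comes with that choice. *CG8117* (X) was at 0.276 and 0 CPM in females and at 3.96 and 4.47 CPM in males (at least 21.1-fold higher, edgeR adjusted p = 0.0091). *lncRNA:CR45702* was at 0.276 and 0 CPM in females and at 6.87 and 2.48 CPM in males (at least 23.4-fold higher, edgeR adjusted p = 0.0083). *CG14452* was at 0 CPM in both females and at 1.26 and 1.22 CPM in males (at least 6.19-fold higher), and its call was lost in 7 of the 8 fits that left out a library. The call of *CG8117* was lost without *CSB* female replicate 2 (edgeR adjusted p = 0.052), and that of *lncRNA:CR45702* without *CSB* female replicate 2 or male replicate 1 (0.0731 and 0.103). *CG10814* (−3.41) and *arg*, which encodes arginase (−3.05), were higher in females, at 5.83 CPM or less. *CG10814* was lost without *CSB* female replicate 2 (edgeR adjusted p = 0.0512) and *arg* without *CSB* female replicate 1 (0.06). The others among these 30 were small structural RNAs at 22.7 CPM or less and the genes described above. A transfer RNA gene among them, *tRNA:Tyr-GTA-1-9*, lies in exons of *Ntl* on the same strand, so its reads may belong to *Ntl*, and its call was lost without *CSB* female replicate 1 (edgeR adjusted p = 0.166).

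The sex difference of the *Obp56h* null line was estimated in the same fit, from 4 other libraries. There, 432 of the 13536 genes (3.19%) were called between the sexes, 113 higher in males and 319 in females. In fits without 1 library this count was 196 (without null male replicate 2), 209 (null female replicate 1), 256 (null male replicate 1), 920 (*CSB* male replicate 2) and 949 (*CSB* male replicate 1). Of the 393 genes called in *CSB*, 376 had the same sign in the null line, and 224 (57.0%) were also called there in the same direction, which is 51.9% of the 432. The share was 43.6% for genes higher in males (58 of 133) and 63.8% for genes higher in females (166 of 260). Among the 13143 genes not called in *CSB*, 62.6% had the same sign in both lines. *roX1*, *roX2*, *TotA*, *TotC*, *TotX*, *Cyp4d21*, *sxe2*, *Obp99b*, *fit*, *Obp99a*, *Yp1*, *Yp2* and *Yp3* were called in the same direction in both lines. In the null males, the yolk sums were 78.5 and 53.2 CPM, near the 54.0 CPM of *CSB* male replicate 2 and far below the 1445 CPM of *CSB* male replicate 1. The sex difference itself differed between the lines, by the interaction in the same fit, in 5 genes (0.0369%), with 413 (3.05%) at an unadjusted p under 0.05. These 5 became 1 without *CSB* female replicate 1, 61 and 214 without *CSB* male replicate 1 and 2, 34 and 11 without null male replicate 1 and 2, and 14 without null female replicate 2. Of the 393 called genes, 95 were at an unadjusted p under 0.05 for the interaction. The *Su(Ste)* repeats were not called in the null line, where their log2 fold changes were 1.57 to 2.31.

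**Figure D4:**
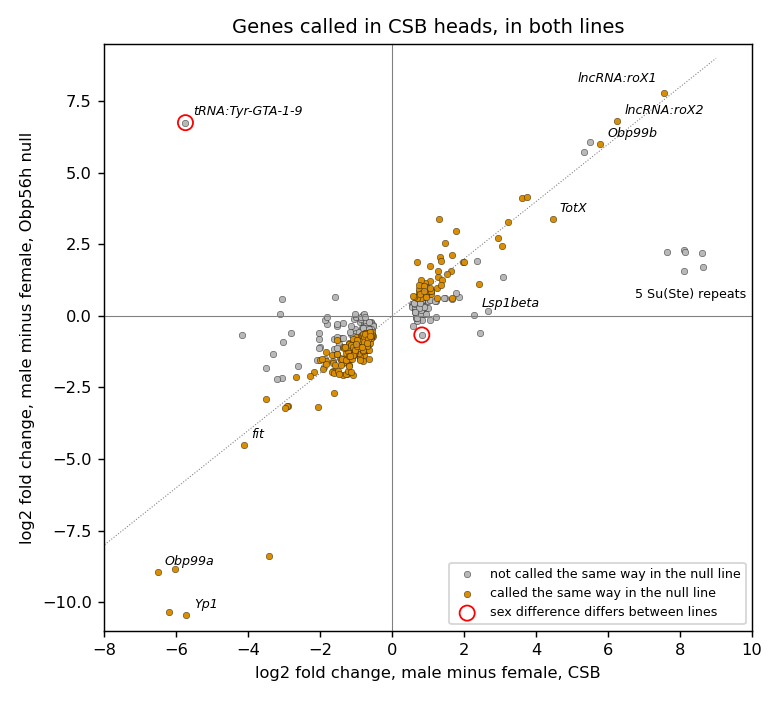
Log2 fold change, male minus female, of the 393 genes called in *CSB* heads (x axis) and in *Obp56h* null heads (y axis), in orange where the null line called them the same way, with red circles around the 2 of them whose sex difference differed between lines and the dotted line marking equal values. Most points lie in the quadrants of equal sign (376 of 393), and the yolk genes lie below the dotted line, with *Yp1* at −5.72 and −10.45.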

How the data were processed

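RNA-seq read counts per gene were analysed for heads of *CSB* males and females, 2 libraries each, with 4 libraries of the *Obp56h* null line in the same fit. Per the study's methods, the authors filtered and trimmed the reads, checked for ribosomal RNA contamination, aligned by GSNAP and used Subread to count uniquely placed reads for each gene. The deposited values are raw counts. Whether counting used strand is not given in the sources used here.

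Genes that passed filterByExpr (minimum count 10) were tested with edgeR 4.0.16 (R 4.3.3), with TMM factors, 1 model of 4 groups over 8 libraries, and quasi-likelihood F tests of male minus female, adjusted by Benjamini-Hochberg. Errors of log2 fold changes are standard errors. Total counts and floors of 3 reads are given with the results and cover counting error only. Symbols and positions came from Ensembl release 115 (BDGP6), in which 202 of the 17490 gene IDs had no match.

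Named genes were the 15 largest called differences per direction (non-overlapping replicates, at least 1 CPM in the higher sex), called or defining list members, and a fixed set of sex-biased genes. Others are marked as named after their values were seen. Members and lists were chosen with earlier results of these data known. Alternatives were the likelihood ratio test, DESeq2 1.42.0, limma 3.58.1 (voom), other scalings and filters, a replicate block, thinning, counts per kb, a stricter threshold and leaving out libraries.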

Additional observations from a re-analysis of the deposited data

Results flagged for a closer look

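In 5 genes the sex difference of *CSB* heads differed from that of *Obp56h* null heads, by the interaction of sex and genotype in edgeR's quasi-likelihood fit. The values below are the null difference minus the *CSB* difference on the log2 scale.

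*FBgn0085757*, an identifier without a symbol in the annotation used here, had an interaction of 4.29 (edgeR adjusted p = 1.5e-08). It was at 68.6 and 86.6 CPM in *CSB* females, 77.9 and 63.8 CPM in *CSB* males, 5.06 and 4.82 CPM in null females and 84.2 and 92.2 CPM in null males, so that the null females alone stood apart. *tRNA:Tyr-GTA-1-9* had an interaction of 12.5 (edgeR adjusted p = 0.025), with 9.67 and 5.04 CPM in *CSB* females, 0.110 and 0.146 CPM in *CSB* males, 0.0816 and 0 CPM in null females and 0.0932 and 11.3 CPM in null males. The null males lay far apart from each other.

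*Mdr50*, a transporter of the ABC family, had an interaction of 2.22 (edgeR adjusted p = 0.034). It was at 4.88 and 5.58 CPM in *CSB* females and 7.58 and 8.56 CPM in *CSB* males, and at 1.06 and 1.61 CPM in null females and 10.1 and 8.71 CPM in null males. *Sardh*, sarcosine dehydrogenase, had an interaction of 2.42 (edgeR adjusted p = 0.044), with 6.35 and 11.0 CPM in *CSB* females, 12.8 and 16.3 CPM in *CSB* males, 3.92 and 1.61 CPM in null females and 23.5 and 26.04 CPM in null males. Its *CSB* difference was not called in the fit of all libraries but was without *CSB* male replicate 1 (edgeR adjusted p = 0.0202). *CG4757* had an interaction of −1.48 (edgeR adjusted p = 0.034). It was higher in *CSB* males (37.3 and 37.7 CPM in females, 69.4 and 63.2 CPM in males) and lower in null males (25.9 and 35.1 CPM in females, 21.6 and 16.9 CPM in males). Its *CSB* call was lost without *CSB* female replicate 1 or 2 (edgeR adjusted p = 0.12 and 0.112).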

How the results depend on the processing

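Of 130 named genes that were called, 38 were called in every setting that tested them. The 393 calls (133 higher in males, 260 in females) became 594 (201 and 393) with no filter on low counts, 203 (79 and 124) with *CSB* libraries alone, 165 (62 and 103) at an adjusted p under 0.01, and 148 to 957 (47 to 298 and 101 to 659) in fits without 1 library. Without both *CSB* libraries numbered 1, 171 were higher in females. DESeq2 gave 457, limma voom 339 and RLE factors 424. The 65 X-linked genes higher in females became 41 with library size only, 35 with *CSB* alone, 26 at an adjusted p under 0.01, 39 without both numbered 1, and 20 to 157 without 1 library. The 432 null calls became 226 at an adjusted p under 0.01, 878 without both *CSB* libraries numbered 1 and 196 to 949 without 1 library. The 5 interaction calls became 30 (likelihood ratio test), 17 (DESeq2), 2 (library size only), 70 (no filter), 14 (counts per kb), 13 (without both numbered 1) and 1 to 214 (without 1 library), and 1 each with at least 10 counts in every library, with thinning and at an adjusted p under 0.01. With the replicate number as a block, 454 sex differences and 18 interactions were called, and with *CSB* alone and the block 644 (224 and 420, of which 101 X-linked and higher in females). Same-numbered *CSB* libraries deviated together (r = 0.46 across genes), but there are only 2 pairs and no source for a pairing. The sex by genotype difference could not be run with *CSB* libraries alone. Among genes that were not called, the log2 fold change changed sign for *DptA* (1.24 with limma voom, 0.049 with library size only, 0.045 with the replicate block, 0.24 with the block and *CSB* alone), and with thinning for *msl-1* (−0.0091), *repo* (−0.029), *mof* (−0.021) and *AttA* (−0.064). Without both *CSB* libraries numbered 1 it changed sign for *bam* (3.23), *Def* (0.17), *Drs* (0.33), *Lsp1gamma* (0.22), *DptA* (2.60), *ple* (−0.095), *elav* (−0.076), *msl-1* (−0.12), *nSyb* (−0.11) and *Lsp2* (−0.86). In fits without 1 library it changed sign at least once, within the range given, for *bam* (−5.98 to 2.41), *Drs* (−1.06 to 0.23), *TotZ* (−6.25 to 0.91), *DptA* (−1.52 to 2.70), *elav* (−0.051 to 0.096), *trp* (−0.22 to 0.22), *msl-1* (−0.14 to 0.26), *nSyb* (−0.049 to 0.14), *mle* (−0.12 to 0.26), *per* (−0.030 to 0.34), *ple* (−0.17 to 0.12), *TotF* (−0.56 to 0.83), *osk* (−0.70 to 1.43), *AttA* (−0.73 to 2.83), *Lsp1gamma* (−1.09 to 0.13), *Lsp2* (−0.71 to 0.74), *repo* (−0.22 to 0.25) and *mof* (−0.25 to 0.31). The cause was not tested. Depth limits genes near the floor of 0.124 to 0.276 CPM.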
